A study of Mus musculus with 2 samples.

Results

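The genes described here are 47 genes that copy DNA or make its building blocks, of 14774 genes with reads listed for both libraries. They were taken by symbol from a list of replication and nucleotide synthesis genes, written with earlier results of these data known, and all 47 were found. RNA was sequenced from CD4+CD25+ cells of C57BL/6 mouse spleens, labelled as Tregs (regulatory T cells), after 5 days beside SVEC4-10, an SV40-transformed endothelial line of the mouse. In the control co-culture the endothelial cells had received a control oligo, and in the knockdown co-culture small interfering RNA against Capns1, the gene of the small calpain subunit. The labels give no other difference between the groups, and neither the age of the mice nor the number pooled. Each group had 1 library, so nothing below is checked against replicates and p-values are not given.

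A cell copies its DNA once per division. Before S phase the origin recognition complex, Cdc6 and Cdt1 load rings of Mcm proteins onto DNA, and geminin blocks reloading. At the start of S phase Cdc45 and the GINS complex turn each ring into an active helicase, primase and DNA polymerase alpha lay primers, and polymerases epsilon and delta extend them while held by the PCNA clamp. Many of these genes are known targets of E2F transcription factors, which the retinoblastoma protein restrains until a cell commits to divide. In immune tissue their RNA is high in dividing lymphocytes and low in resting ones.

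The control library holds 48100576 and the knockdown co-culture library 47300284 deposited reads. Levels are in CPM, reads per 1000000 of the scaled library, and 3 reads correspond to 0.0626 and 0.0642 CPM. Every listed gene had at least 100 control reads, so the list leaves out genes that were low in the control. The label was set against defining markers. Foxp3, the transcription factor of Tregs, stood at 5.22 and 4.73 CPM and the T cell receptor chain gene Cd3e at 22.3 and 21.2 CPM. Cd4, the co-receptor on which the cells were isolated, stood at 8.22 and 6.25 CPM, a fold of the knockdown over the control co-culture of 0.759 (95% interval 0.650 to 0.886). The endothelial adhesion gene Pecam1 stood at 83.9 and 79.7 CPM. The remaining measured endothelial markers Kdr, Eng and Vwf, named after their values were seen, were far lower. They stood at 2.96, 6.57 and 11.3 CPM in the control and at 2.46, 6.59 and 13.1 CPM in the knockdown co-culture. The B cell receptor gene Cd79a stood at 559 and 517 CPM and the myeloid lysozyme gene Lyz2 at 875 and 643 CPM. Both were far above Foxp3, Cd3e and Cd4, so these markers do not bear out libraries of mainly Treg RNA. Every listed gene had at least 100 control and 37 knockdown co-culture reads, so no listed marker could be at 0. The list held 7 of 8 Treg, 8 of 9 T cell, 10 of 11 macrophage and monocyte and 3 of 4 neutrophil markers. It also held 4 of 5 erythroid and 4 of 7 endothelial markers. The 6 matrix-producing cell markers summed to 2701 CPM (control) and 2589 CPM (knockdown co-culture). Whether RNA of the SVEC4-10 line was in the libraries was not tested. Which cells the replication transcripts came from was not measured, and a different share of dividing cells and a different amount of RNA per cell cannot be told apart in bulk RNA.

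Promoters were searched for E2F binding words. The genes were taken by symbol and not by promoter. Many of them are known E2F targets, so the words are not independent of that choice. RefSeq promoter windows of 300 bases, from 250 bases before to 50 bases after a transcription start on build GRCm38.p6, were found for 39 of the 47 genes, in 48 windows. The words searched on both strands were TTTCCCGC and TTTGGCGC and TTTCGCGC and TTTGCCGC, which can overlap each other. Of the 39 genes, 15 (38.5%) held at least 1 of them, against 509 of 11339 listed genes with a window (4.49%). Counted by window, 15 of the 48 (31.25%) held a match, against 2.27% of all 32851 windows. In 5 of the 39 genes 1 or more windows held at least 2 separate matches, against 0.176% of listed genes. The 20 matches lay between 219 bases before the start and position 40 after it, and 13 began within 60 bases of the start. A match of letters is a description and not a measured binding site.

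Printed here are 200 bases, from 170 before to 30 after the start, for 6 genes with matches and for Rfc4 and Rrm2, which hold no match and had high folds. Capitals mark the E2F words, merged where they overlap. On GRCm38.p6 the stretches are Orc1 chr4:108579284-108579483 (+ strand), Mcm5 chr8:75109339-75109538 (+ strand), Mcm6 chr1:128359676-128359875 (- strand), Mcm7 chr5:138171854-138172053 (- strand), Pole2 chr12:69228161-69228360 (- strand), Rfc3 chr5:151651179-151651378 (- strand), Rfc4 chr16:23127701-23127900 (- strand) and Rrm2 chr12:24708084-24708283 (+ strand).
Orc1: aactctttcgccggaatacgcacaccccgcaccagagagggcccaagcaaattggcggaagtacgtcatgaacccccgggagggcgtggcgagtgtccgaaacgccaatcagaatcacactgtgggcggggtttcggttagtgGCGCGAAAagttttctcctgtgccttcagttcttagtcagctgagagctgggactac
Mcm5: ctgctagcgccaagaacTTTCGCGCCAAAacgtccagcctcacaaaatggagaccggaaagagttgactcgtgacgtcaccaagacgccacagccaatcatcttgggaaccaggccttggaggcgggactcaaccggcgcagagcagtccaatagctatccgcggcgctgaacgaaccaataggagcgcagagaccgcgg
Mcm6: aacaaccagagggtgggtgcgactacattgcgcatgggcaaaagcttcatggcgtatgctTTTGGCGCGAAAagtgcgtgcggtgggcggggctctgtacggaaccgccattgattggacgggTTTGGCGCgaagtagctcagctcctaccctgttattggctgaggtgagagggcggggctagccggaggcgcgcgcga
Mcm7: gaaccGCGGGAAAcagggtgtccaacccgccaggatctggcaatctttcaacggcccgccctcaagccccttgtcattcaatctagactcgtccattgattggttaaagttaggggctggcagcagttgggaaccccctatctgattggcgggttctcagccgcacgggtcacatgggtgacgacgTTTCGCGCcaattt
Pole2: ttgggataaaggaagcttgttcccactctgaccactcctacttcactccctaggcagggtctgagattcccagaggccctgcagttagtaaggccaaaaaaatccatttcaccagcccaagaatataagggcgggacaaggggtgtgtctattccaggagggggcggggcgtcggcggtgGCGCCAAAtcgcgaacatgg
Rfc3: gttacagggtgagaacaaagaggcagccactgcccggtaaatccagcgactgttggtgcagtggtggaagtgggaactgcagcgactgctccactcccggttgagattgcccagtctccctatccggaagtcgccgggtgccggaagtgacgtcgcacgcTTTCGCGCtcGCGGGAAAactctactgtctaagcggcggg
Rfc4: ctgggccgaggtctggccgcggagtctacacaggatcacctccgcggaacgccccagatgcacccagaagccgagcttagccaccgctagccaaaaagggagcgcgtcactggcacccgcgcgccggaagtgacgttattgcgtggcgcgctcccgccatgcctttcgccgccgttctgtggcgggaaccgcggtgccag
Rrm2: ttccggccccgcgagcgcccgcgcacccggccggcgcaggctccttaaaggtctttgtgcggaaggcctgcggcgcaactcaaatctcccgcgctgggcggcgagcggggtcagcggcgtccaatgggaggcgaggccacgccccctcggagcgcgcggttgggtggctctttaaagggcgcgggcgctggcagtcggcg

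In these stretches the Mcm6, Mcm7 and Rfc3 promoters carry 2 marked runs each, and those of Orc1, Mcm5 and Pole2 carry 1. For Mcm7 the window with the most matches was printed, and its other window holds none. The marked run of Mcm5 is longer than a single word because a TTTCGCGC on the printed strand overlaps a TTTGGCGC on the other. The median of the folds described below differed little between genes with and without a match. Genes with a match had a median log2 fold of 0.12 (15 genes), genes without one 0.14 (24 genes) and genes with no window 0.13 (8 genes). The intervals, also described below, lay above 1 in 10 of the 15, 21 of the 24 and 4 of the 8. Over all listed genes 24.2% did so, and these groups are small.

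**Figure D1:**
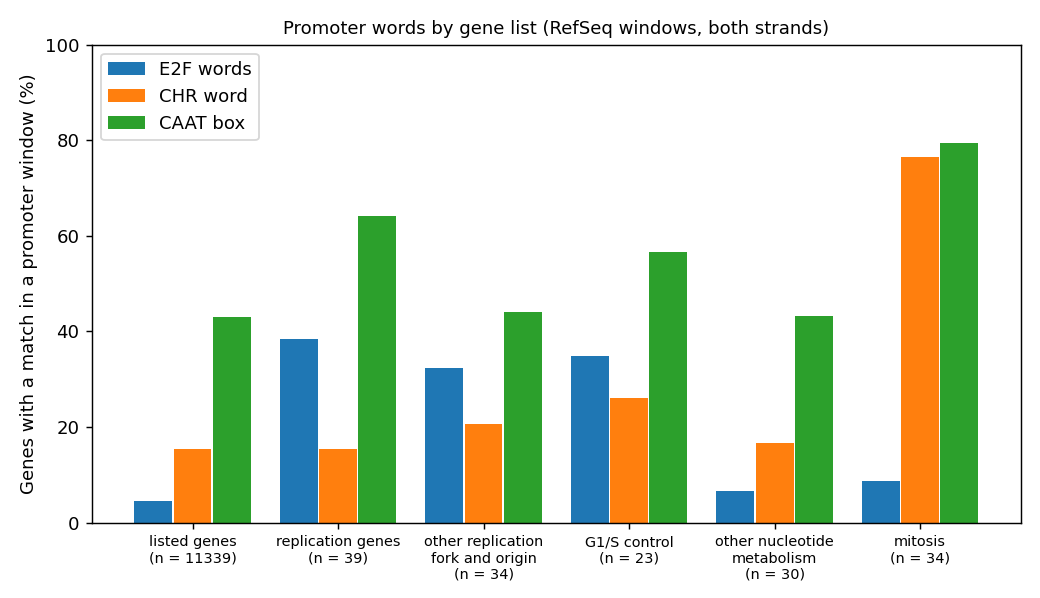
Share of genes (vertical axis, percent) with at least 1 match in a RefSeq promoter window, for E2F words, the CHR word and the CAAT box, in listed genes, the replication genes and 4 other lists. E2F words were held by 38.5% of the replication genes against 4.49% of listed genes, and the CHR word by 76.5% of mitosis genes against 15.4% of the replication genes.

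For other promoter words these genes were compared with those of mitosis, and the CHR word differed widely between them. The CHR word TTTGAA, which is known from promoters of genes expressed late in the cycle, was held by 15.4% of the replication genes (6 of 39), close to the 15.5% of listed genes, and by 76.5% of mitosis genes (26 of 34). The word CCAAT was held by 64.1% of the replication genes, by 43.1% of listed genes and by 79.4% of mitosis genes. Among the other genes of origins and forks, 32.4% held an E2F word, and among G1/S control genes 34.8%.

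Most of the replication genes were slightly higher in the knockdown co-culture library, and none by as much as 1.5-fold. Folds divide the CPM of the knockdown co-culture by that of the control, and brackets hold the exact 95% interval of the ratio of reads, which covers counting error between these libraries only. They treat reads as independent molecules, which PCR copies are not, and can be too narrow. The fold was above 1 in 44 of 47 genes, against 50.2% of all listed genes. The median log2 fold was 0.13, with a range from -0.13 to 0.40 and an SD over genes of 0.10, against 0.00 and 0.20 over all listed genes. Summed over the 47 genes, 168318 control and 177865 knockdown co-culture reads gave 3513 and 3804 CPM, a fold of 1.08 (1.08 to 1.09).

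The intervals of 35 of the 47 genes (74.5%) lay above 1, against 24.2% of listed genes, and that of 1 gene (2.13%) lay below 1, against 22.7%. The other 11 included 1. Of the 35, the intervals of Dnmt1, Lig1, Mcm6 and Prim1 included 1 when the libraries were scaled by total counts or upper quartiles. More reads give narrower intervals, and 37 of the 47 genes had more control reads than the median listed gene. Among the 10817 genes with at least as many reads as Gins3, the least read of the 47, 29.6% of intervals lay above 1 and 24.6% below. A fold of at least 1.2 with its interval above 1 was found in 4 of the 47 genes (8.51%), against 4.65% of listed genes, and the corresponding gap downwards in 0, against 6.74%. Among the 10817 genes with at least as many reads as Gins3, these shares were 3.31% upwards and 3.32% downwards. With the trend of folds on transcript length removed, described further below, the count upwards was 2 of 47 (4.26%), against 3.45% of genes with a known length, a share near the background. None of the 47 was 2-fold apart, as were 0.142% of listed genes.

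**Figure D2:**
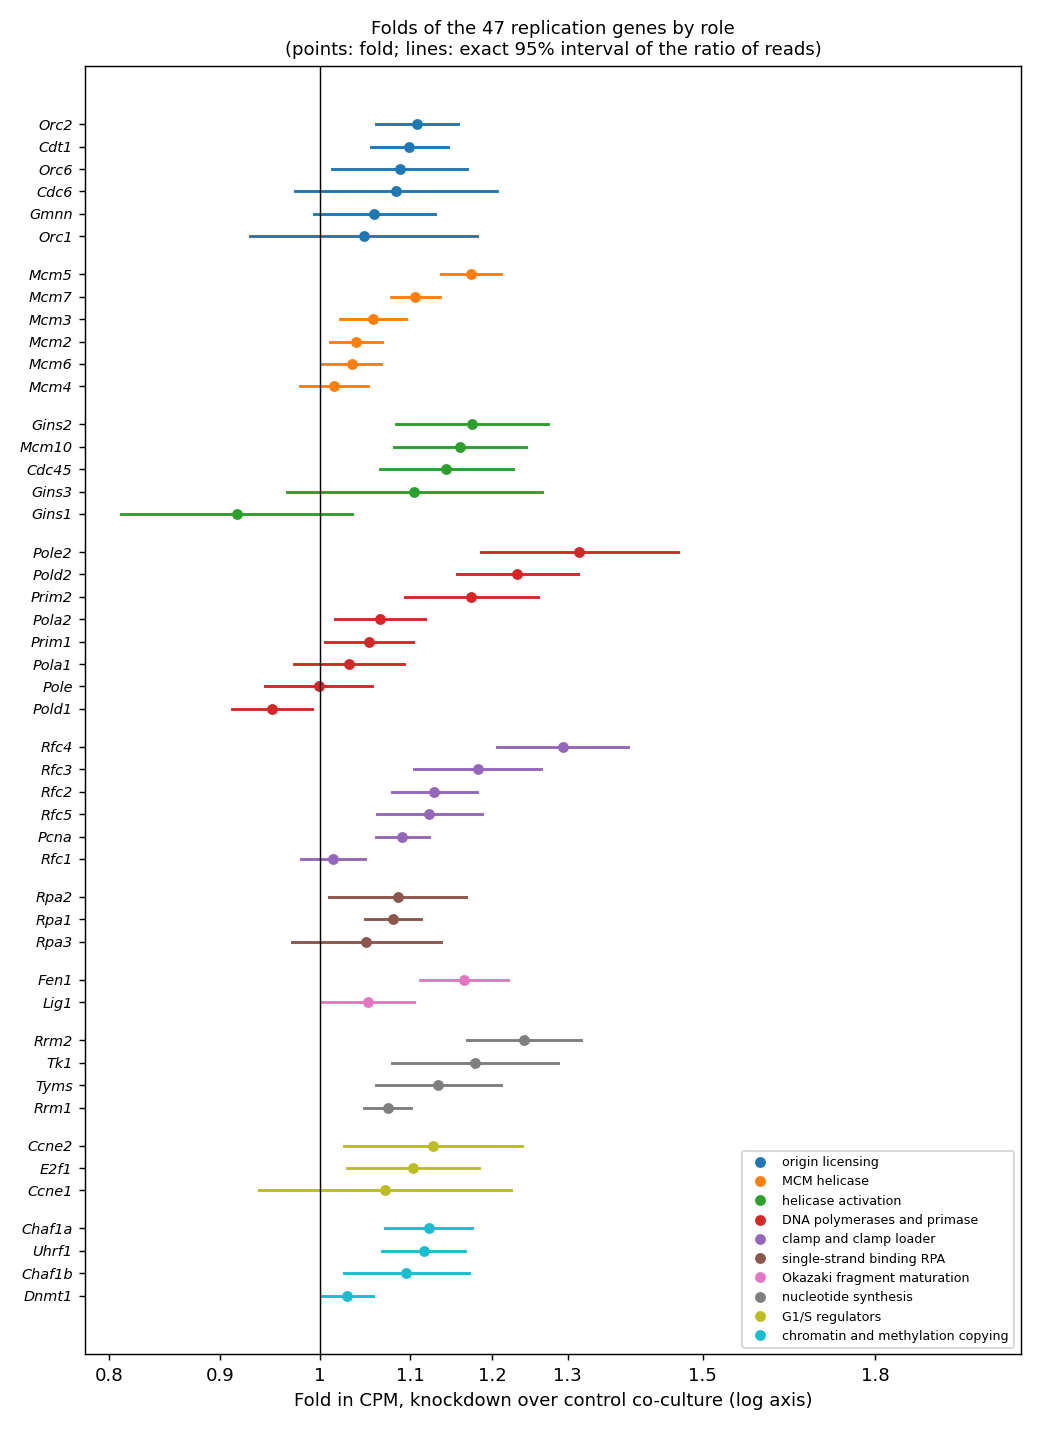
Fold of the knockdown over the control co-culture (log axis) for each of the 47 genes, grouped by role, with exact 95% intervals of the ratio of reads. Of the intervals 35 lie wholly above 1, and only that of Pold1 lies wholly below.

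Origin licensing genes lay close together, with folds from 1.05 to 1.11 in all 6. Orc2, a subunit of the origin recognition complex, had 3905 control and 4223 knockdown co-culture reads, a fold of 1.11 (1.06 to 1.16). Cdt1, which brings the Mcm ring to the origin, had 4496 and 4824 reads, a fold of 1.10 (1.06 to 1.15), and Orc6 had 1504 and 1597 reads, a fold of 1.09 (1.01 to 1.17). The intervals of the other 3 included 1. These were Cdc6, the loading factor, with 672 and 711 reads and a fold of 1.08, Gmnn, which encodes geminin, with 1853 and 1916 reads and a fold of 1.06, and Orc1, the largest origin recognition subunit, with 544 and 556 reads and a fold of 1.05.

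The 6 genes of the Mcm ring, whose proteins assemble in equal numbers, had folds from 1.01 to 1.17. Mcm5 stood highest, with 7071 and 8098 reads and a fold of 1.17 (1.14 to 1.21), followed by Mcm7 with 10974 and 11850 reads and a fold of 1.11 (1.08 to 1.14). The interval of Mcm7 ended at 1.1357, just below the start of that of Mcm5 at 1.1365. Those of Mcm2, Mcm3, Mcm4 and Mcm6 lay further below. Mcm3, Mcm2 and Mcm6 lay at 1.06 (1.02 to 1.10), 1.04 (1.01 to 1.07) and 1.03 (1.003 to 1.07). Mcm4 had 6095 and 6037 reads and a fold of 1.01 (0.979 to 1.05), the 1 member of the ring whose interval included 1. Per kilobase of its longest transcript the level of the 6 genes ran from 35.4 to 77.3 CPM per kb in the control and from 36.0 to 85.6 CPM per kb in the knockdown co-culture.

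The factors that turn the ring into a helicase held both directions. Gins2, a GINS subunit, had 1135 and 1301 reads, a fold of 1.17 (1.08 to 1.27). Mcm10, a firing factor outside the ring, had 1503 and 1702 reads, a fold of 1.16 (1.08 to 1.24), and Cdc45, which bridges GINS and the ring, 1486 and 1658 reads, a fold of 1.14 (1.07 to 1.23). Gins1, another GINS subunit, went the other way with 564 and 504 reads, a fold of 0.916 (0.810 to 1.03), the lowest of the 47, although its interval included 1. Gins3 had 420 and 453 reads and a fold of 1.10 (0.966 to 1.26). The remaining GINS subunit, Gins4, which is outside the 47, had 1968 and 2188 reads and a fold of 1.14 (1.07 to 1.21).

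For polymerases epsilon and delta the second subunit stood above the catalytic one. Pole2, the second subunit of polymerase epsilon, had 643 and 826 reads and the highest fold of the 47, 1.32 (1.19 to 1.46), while Pole, its catalytic subunit, had 2457 and 2395 reads and a fold of 0.999 (0.944 to 1.06). Pold2, the second subunit of polymerase delta, had 1744 and 2098 reads, a fold of 1.23 (1.16 to 1.31). Its catalytic partner Pold1 had 4422 and 4102 reads and a fold of 0.951 (0.911 to 0.992), the 1 interval of the 47 below 1. The further subunits, which are outside the 47, were not all alike. Pole3 stood at 1.22 (1.15 to 1.31), and Pold3, Pold4 and Pole4, chosen after their values were seen, at 1.01, 1.05 and 1.06. In the primase complex Prim2, the large primase subunit, had 1495 and 1713 reads and a fold of 1.17 (1.09 to 1.26). Prim1, the catalytic primase subunit, stood at 1.05 (1.01 to 1.10). In polymerase alpha the second subunit Pola2, at 1.07 (1.02 to 1.12), and the catalytic subunit Pola1, at 1.03 (0.973 to 1.09), had overlapping intervals, and their order turned with the length trend removed, to 1.04 and 1.06.

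The clamp loader showed a similar spread. Rfc4, a small subunit, had 1458 and 1840 reads and a fold of 1.29 (1.21 to 1.39), the second highest of the 47. The other small subunits Rfc3, Rfc2 and Rfc5 stood at 1.18 (1.10 to 1.26), 1.13 (1.08 to 1.18) and 1.12 (1.06 to 1.19). Rfc1, the large subunit, had 6944 and 6872 reads and a fold of 1.01 (0.981 to 1.05), below the intervals of the 4 small subunits. Pcna, the sliding clamp, had 9622 and 10249 reads, a fold of 1.09 (1.06 to 1.12), and per kilobase the highest level of the 47 in both libraries, 132 and 144 CPM per kb.

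Differences between subunits of a complex were followed in the pairs with the widest gap, which were chosen after their values were seen, so the ratios describe them and test nothing. The fold of Pole2 was 1.32 times that of Pole (1.17 to 1.48), that of Pold2 1.30 times that of Pold1 (1.201 to 1.40), and that of Rfc4 1.28 times that of Rfc1 (1.18 to 1.38). The intervals are normal approximations on log counts. In each of these pairs the member with the higher fold has the shorter transcript, for example 1706 bases for Pole2 and 7163 bases for Pole. With the trend of folds on transcript length removed, the ratios were 1.19, 1.25 and 1.18. For Gins2 over Gins1 the ratio was 1.28 (1.11 to 1.48), and there the gene with the higher fold has the longer transcript, 3900 against 1087 bases, and the ratio with the trend removed was 1.36 (1.18 to 1.57).

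Single-strand binding and fragment joining genes all had folds above 1, and 4 of the 5 intervals lay above 1. Rpa1, Rpa2 and Rpa3, which encode replication protein A, the cover of single-stranded DNA, had folds of 1.08 (1.05 to 1.11), 1.09 (1.01 to 1.17) and 1.05 (0.970 to 1.14). Fen1, the nuclease that trims Okazaki fragments, had 3346 and 3805 reads, a fold of 1.17 (1.11 to 1.22). Lig1, the ligase that seals them, had 3213 and 3298 reads, a fold of 1.05 (1.002 to 1.10).

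All 4 nucleotide synthesis genes had intervals above 1, and their median log2 fold of 0.21 was the highest of the 10 roles. Rrm2, the small subunit of ribonucleotide reductase, which makes deoxynucleotides, had 1971 and 2387 reads, a fold of 1.24 (1.17 to 1.32). Rrm1, the large subunit, had 12226 and 12823 reads, the most of the 47, and a fold of 1.07 (1.05 to 1.10). Tk1, the thymidine kinase of the salvage route, had 945 and 1087 reads, a fold of 1.18 (1.08 to 1.29), and Tyms, thymidylate synthase, 1698 and 1878 reads, a fold of 1.13 (1.06 to 1.21). Other genes of nucleotide metabolism had a median log2 fold of 0.11, with 24 of 35 intervals above 1 and 4 below. They included Guk1, a guanylate kinase, at 1.25 (1.18 to 1.33), and Dctpp1, a dCTP pyrophosphatase, at 1.23 (1.12 to 1.35). Samhd1, which degrades deoxynucleotides, and Ctps2, a CTP synthase, were lower, at 0.912 (0.893 to 0.931) and 0.891 (0.838 to 0.948). Shmt2, the most read gene of that list, stood at 1.08 (1.06 to 1.10).

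The 3 regulators of the entry into S phase among the 47 and the 4 genes that copy chromatin had folds above 1, with the interval of Ccne1 including 1. E2f1, the transcription factor, had 1545 and 1664 reads, a fold of 1.10 (1.03 to 1.18). Ccne2 and Ccne1, the E cyclins, had 845 and 930 reads, a fold of 1.13 (1.03 to 1.24), and 436 and 456 reads, a fold of 1.07 (0.938 to 1.23). Chaf1a and Chaf1b, subunits of the assembly factor that places histones behind the fork, stood at 1.12 (1.07 to 1.18) and 1.10 (1.03 to 1.17). Uhrf1, which recognises hemimethylated DNA, had 3905 and 4254 reads, a fold of 1.12 (1.07 to 1.17), and Dnmt1, the methyltransferase it recruits, 10122 and 10167 reads, a fold of 1.03 (1.001 to 1.06).

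**Figure D3:**
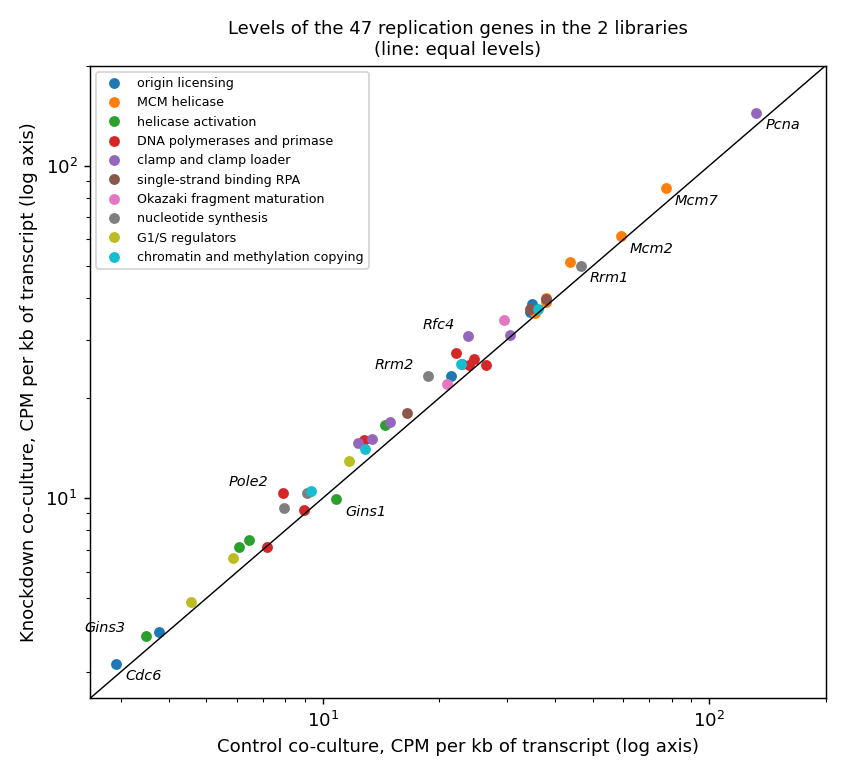
Level of each of the 47 genes in CPM per kilobase of its longest transcript, control co-culture (horizontal) against knockdown co-culture (vertical), both on log axes, coloured by role. Levels span from 2.92 (Cdc6) to 132 (Pcna) CPM per kb in the control, and all but 3 genes lie above the line of equal levels.

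Levels of the 47 genes differed far more between genes than between libraries. Per kilobase Pcna was followed by Mcm7, Mcm2, Rrm1 and Mcm5, at 77.3, 59.0, 46.6 and 43.7 CPM per kb in the control and 85.6, 61.3, 50.1 and 51.2 CPM per kb in the knockdown co-culture. The lowest were Cdc6, Gins3 and Orc1, at 2.92, 3.48 and 3.77 CPM per kb in the control. Together the 47 genes took 0.353% (control) and 0.379% (knockdown co-culture) of the reads of listed genes. Across the 47 genes the fold was slightly smaller at higher levels, with a Spearman's rho of -0.27 between summed CPM and log2 fold, given as a description over genes that share the 2 libraries.

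Other cell cycle genes were set beside them from 4 lists. The mitosis genes had a median log2 fold of 0.12, with 33 of 42 intervals above 1 and 2 below, and the 2 below were Mki67, the proliferation antigen Ki-67, at 0.880 (0.859 to 0.902) and Kif23, a kinesin of cell separation, at 0.957 (0.922 to 0.993). The highest were Spc25, a kinetochore protein, at 1.33 (1.21 to 1.47) and Ube2c, a ubiquitin-conjugating enzyme of mitotic exit, at 1.28 (1.21 to 1.36). Cdk1, the mitotic kinase, stood at 1.24 (1.18 to 1.31) and Anln, the most read of the list, at 1.03 (1.01 to 1.06). Further genes of origins and forks had a smaller median of 0.07, with 18 of 41 intervals above 1 and 2 below. Their highest were Pole3 and Ticrr, an origin firing factor, at 1.19 (1.10 to 1.30), and their lowest Mcm9, a helicase of DNA repair, at 0.814 (0.759 to 0.873) and Supt16, a histone chaperone subunit, at 0.936 (0.907 to 0.967). Ssrp1, the partner of Supt16 and the most read of the list, stood at 1.09 (1.06 to 1.11), Top2a at 1.12 (1.09 to 1.16) and Orc4 at 0.962 (0.908 to 1.02).

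Genes of G1/S control held both directions, with a median log2 fold of 0.02, 12 of 29 intervals above 1 and 6 below, and 1 of the 30 listed genes was not analysed here. Mybl2, a transcription factor that E2F is known to induce, had 963 and 1269 reads, a fold of 1.35 (1.24 to 1.47), and Ccna2, cyclin A, 5770 and 6988 reads, a fold of 1.24 (1.198 to 1.29). Rb1, the retinoblastoma protein, had 3809 and 3104 reads, a fold of 0.835 (0.796 to 0.876), and E2f2 a fold of 0.882 (0.810 to 0.961). Cdk4, the G1 kinase and the most read of the list, stood at 1.13 (1.11 to 1.16), Cdk2, the kinase of cyclins E and A, at 0.987 (0.939 to 1.04), and Cdkn1a, the kinase inhibitor p21, at 1.10 (1.06 to 1.14).

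**Figure D4:**
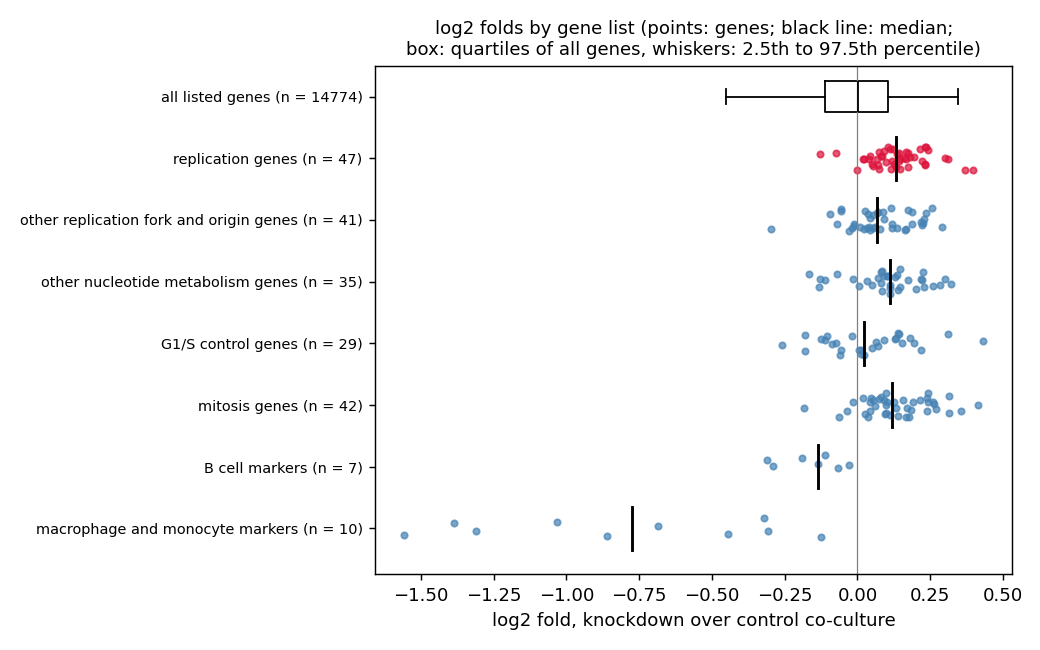
log2 fold, knockdown over control co-culture (horizontal axis), of single genes (points) with the median of each list (black line). The box and whiskers give the quartiles and the 2.5th to 97.5th percentiles of all 14774 listed genes. The replication genes have a median of 0.13 and the mitosis genes one of 0.12, while the B cell markers lie at -0.13 and the macrophage and monocyte markers at -0.77.

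Markers of other cells differed between the libraries as well. The macrophage and monocyte markers had 10 of 10 measured intervals below 1, and their sums were 1269 CPM (control) and 914 CPM (knockdown co-culture). The B cell markers had 6 of 7 intervals below 1, with sums of 2690 and 2400 CPM, and the erythroid markers 4 of 4, with sums of 2565 and 2309 CPM. The matrix-producing cell markers had 2 of 6 below and 1 above, with sums of 2701 and 2589 CPM. The T cell markers had 2 of 8 below and 2 above, with sums of 185 and 189 CPM. Of the measured Treg markers 0 of 7 lay below or above, with sums of 35.7 and 33.0 CPM. They had only 109 to 378 control reads each, and 6 of the 7 log2 folds were below 0. The fold of their summed reads was 0.925 (0.863 to 0.992). Of the endothelial markers 1 of 4 lay below and 1 above, with sums of 105 and 102 CPM. The CD8 T cell markers had 1 of 2 below and sums of 110 and 102 CPM, and the neutrophil markers 2 of 3 above and 1 below, with sums of 160 and 202 CPM. The part of these differences in the folds of the replication genes was not tested.

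**Figure D5:**
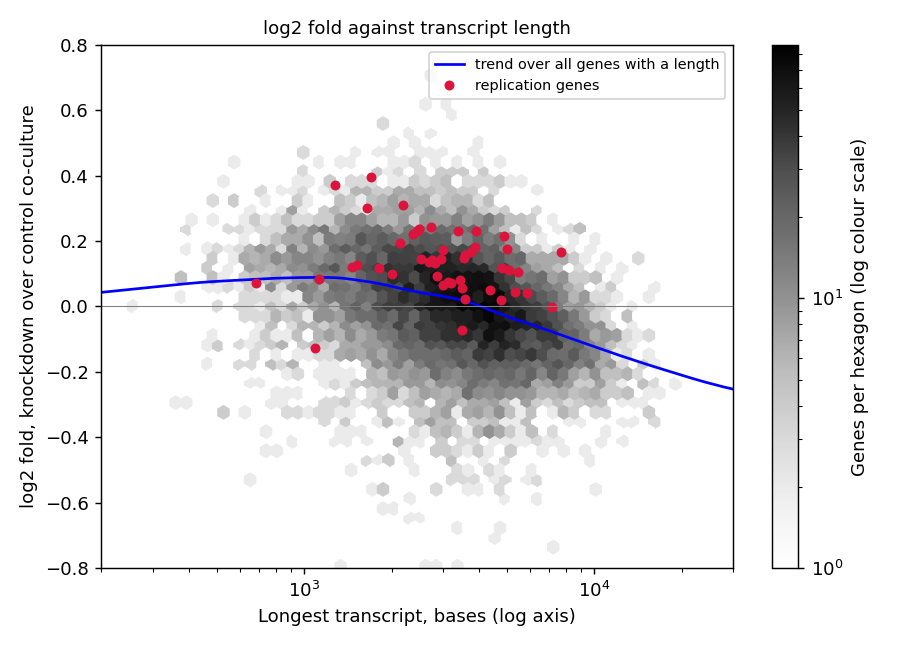
log2 fold, knockdown over control co-culture (vertical axis), against the length of the longest transcript in bases (log axis). Grey hexagons count all listed genes with a length, the blue line is their lowess trend and red points are the 47 replication genes. Of these 43 lie above the trend, against 6695 of all 13381 genes with a length.

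Folds went with transcript length across all genes, and the replication genes lay above that trend. Spearman's rho of log2 fold with length was -0.32 over the 13381 listed genes that have one and -0.26 over the 47 genes. Both are across genes, and genes are no independent replicates. The 47 genes had a median length of 3014 bases, against 3375 bases for all. Among transcripts of 4000 bases and longer the 11 replication genes had a median log2 fold of 0.10 with 7 intervals above 1, while all 5087 such genes had a median of -0.05 and 12.99% of intervals above 1. Between 2000 and 4000 bases the medians were 0.15 for 27 replication genes and 0.03 for all, and below 2000 bases 0.12 for 9 replication genes and 0.08 for all. Intervals above 1 numbered 22 of the 27, against 30.5% of all, and 6 of the 9, against 40.5% of all. With the trend removed, 43 of the 47 genes lay above 0, against 6695 of all 13381 genes with a length. Their median log2 fold was then 0.11, and the intervals of 30 of the 47 (63.8%) lay above 1, against 22.4% of all genes with a length. Those of Lig1, Mcm2, Orc6, Pola2, Prim1 and Rpa2 no longer did, and that of Pola1 came to do so. Those of 2 genes then lay below, Pold1 and Gins1, against 21.6% of all.

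Because nothing states whether the counting used strand, reads of overlapping genes on opposite strands cannot be told apart. Exons of 13 of the 47 genes overlap those of another listed gene in GENCODE M21, in each case on the opposite strand. All 13 had intervals above 1, with a median log2 fold of 0.17, and of the other 34 genes 22 (the highest being Pole2) had intervals above 1 and 1 below, with a median of 0.11. Of those 34 genes, Orc1, Pole, Pole2 and Rpa1 each share exons with 1 gene that is not listed, so they are not free of overlap. Of the 14 listed overlap partners 5 had intervals above 1, 3 below and 6 including 1. Those named here were chosen after their values were seen. Nif3l1, beside Orc2, stood at 1.197 (1.11 to 1.29), above Orc2 itself. Eif4a2, beside Rfc4, stood at 1.04 (1.02 to 1.06), Gse1, beside Gins2, at 0.939 (0.899 to 0.982), Ints8, beside Ccne2, at 0.875 (0.824 to 0.930), and Cops6, beside Mcm7, at 1.10 (1.07 to 1.14). For Pcna 2 pseudogenes and for Tyms 1 pseudogene carry the gene's name, so part of their reads may belong to either.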

How the data were processed

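Total RNA of 2 libraries was compared, 1 per group, with groups taken from the treatment label. Per the file headers, the deposited counts are raw mapped reads of each gene. The prefix Cont was read as the control and Si as the interfering RNA, which the titles do not use, and every direction rests on this. The authors also deposited total-scaled and TMM-scaled reads (unit signal), which were not used for results, and a log2 ratio column. In the authors' deposited table the log2 ratio equals that of the total-scaled columns to within 0.005, and it is above 0 in 44 of the 47 genes. The submitters' processing notes name Trimmomatic 0.39, BWA 0.7.17, mm8 and GRCm39, without roles. The read counting and its use of strand were, in the sources used here, not given. BWA is not splice-aware, so reads across exon junctions may be lost.

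The row of library totals was left out. The reads outside listed genes were 0.782% and 0.764% of the totals. CPM used TMM library sizes from edgeR 4.0.16 (factors 1.004 and 0.996) under R 4.3.3. The other steps ran in Python 3.11.15 with scipy 1.17.1 and statsmodels 0.14.6. With 1 library per group no dispersion can be estimated, so no test was fitted. Intervals of ratios are exact 95% Clopper-Pearson intervals, and log2 folds used a prior count of 0.5. The thresholds were a fold of 2 or 1.2 with an interval excluding 1. Lengths are those of the longest GENCODE M21 transcript, found for 13381 genes (90.6%) and for all 47 genes, and the trend was a lowess fit with a fraction of 0.3. Promoters came from RefSeq (GRCm38.p6) by symbol. The scripts were tested on simulated data.

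The members and lists were chosen with earlier results of these data known. All members may be named. Of each other list the 2 highest and 2 lowest genes with intervals excluding 1 and the most read gene are named, plus a fixed set whatever its values. An item of that set is not reported here. Others are marked as chosen after their values were seen. Alternatives were other scalings, including DESeq2 1.42.0 size factors, filters on low counts, prior counts, thresholds and length.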

Additional observations from a re-analysis of the deposited data

How the results depend on the processing

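The median log2 fold of the 47 genes ran from 0.11 to 0.14 over the alternatives run, and the number of intervals above 1 from 30 to 35 of 47. Scaling by total counts or upper quartiles gave 31 such intervals each and a fold of summed reads of 1.074 and 1.073, and DESeq2 size factors gave 35 and 1.08. With the length trend removed, the fold of summed reads was 1.075, the genes at least 1.2-fold higher numbered 2 in place of 4, against 3.45% of all genes with a length, and 2 intervals lay below 1. Without the 13 genes that share exons with another listed gene, an alternative chosen after seeing the data, 22 intervals of 34 (64.7%) lay above 1 and the median log2 fold was 0.11, since all 13 genes left out had intervals above 1. No member was 1.5-fold apart, against 1.51% of listed genes. Of the 47 genes, none whose interval excluded 1 changed direction with another scaling or with the length trend removed. Another scaling moves every fold by the same small factor, so a change there was hardly possible. With the length trend removed, Gmnn, Rpa3 and Pole, whose intervals included 1, changed side, to folds of 0.996, 0.991 and 1.05. No paired analysis was possible because each group has 1 library. The spread between replicate cultures is unknown, and the depth limits only the counting error.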
